A study of Mus musculus with 10 samples.

Results

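The 10 genes described here encode transcription factors of the cell cycle: the E2F family (E2f1 to E2f8), Foxm1 and Mybl2. They were taken by name from a table of 57010 mouse genes, and all 10 passed the filter on low counts. RNA was measured in whole mammary tumours of mice carrying the MMTV-PyMT transgene, in which a mouse mammary tumour virus promoter drives the polyoma middle T oncogene in mammary epithelium. The libraries came from 5 PyMT tumours with both copies of the RHBDL4 gene knocked out (RHBDL4 -/-, below KO) and from 5 PyMT tumours with both copies intact (RHBDL4 +/+, below WT). RHBDL4, encoded by Rhbdd1, is an intramembrane protease of the rhomboid family. All tumours were untreated and were taken 5 weeks after tumour onset, and the labels give neither strain nor age. Levels are in CPM, a gene's count divided by the library total in M counts, with totals scaled between libraries by the trimmed mean of M-values (TMM).

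E2F proteins bind the promoters of genes needed for DNA replication, mostly as pairs with a DP protein. E2f1, E2f2 and E2f3 encode activators that the retinoblastoma protein holds in check until a cell commits to divide. E2f4 and E2f5 encode repressors that act with the other pocket proteins in resting cells. E2f6 encodes a repressor that lacks the pocket protein binding region and works with Polycomb group proteins. E2f7 and E2f8 encode atypical repressors that bind DNA without a DP partner, and they are themselves switched on by E2F during S phase. Mybl2 encodes B-MYB, which joins the MuvB complex in S phase and helps to recruit FOXM1, the forkhead activator of genes for G2 and mitosis. For the comparison of roles, E2f1, E2f2, E2f3, Foxm1 and Mybl2 were taken as the 5 activators and E2f4 to E2f8 as the 5 repressors.

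KO libraries held 27.4 to 35.0 M counts and WT libraries 25.7 to 43.3 M counts. Rhbdd1 stood at 17.0 ± 3.40 CPM in KO and 35.2 ± 7.48 CPM in WT tumours (SD, n = 5 each), with no overlap between the groups. Its log2 fold change was -1.14 ± 0.16 without WT replicate 5 (SE, edgeR adjusted p = 0.113) and -1.05 ± 0.20 with all 10 libraries (edgeR adjusted p = 0.669). DESeq2 called it in both cases (adjusted p = 7.6e-07 and 0.000277), as did limma-voom with quality weights (0.0249 and 0.0360). One WT library, replicate 5, stood apart from the other 9, and fold changes are given with and without it. Markers of luminal epithelium took 0.0108% of its counts, against 0.593% to 0.919% in KO libraries and 0.653% to 0.753% in the other WT libraries. Skeletal muscle markers took 9.36% of its counts, against at most 0.183% in KO and 0.0111% in the other WT libraries, and none of these 15 luminal and 14 muscle genes was at 0 there. Its TMM factor was 0.588. The labels give each library a batch of its own, so batch and library cannot be told apart. KO replicates 3 and 4, WT replicates 1 and 2, and WT replicates 3 and 4 share a leading number in their library names, which the labels do not tie to an animal. The main tests treat each library as independent, which the labels do not establish for libraries that share a number. If such libraries are not independent, the p-values are too small. The p-values measure the spread between these libraries, part of which may be technical.

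Without WT replicate 5, all 10 regulators had a log2 fold change below 0 in KO tumours. The values of Mybl2, E2f8, Foxm1, E2f7, E2f1 and E2f2 lay between -0.98 and -0.50. Those of E2f5, E2f4, E2f6 and E2f3 lay between -0.22 and -0.11. No member passed the test over all genes in edgeR (quasi-likelihood test, Benjamini-Hochberg adjusted p under 0.05), where 0.0105% of 19016 genes did. With WT replicate 5 included, the values of all 10 stayed below 0, but no member had an unadjusted p under 0.05.

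The promoters of the members at both ends of this range are shown for the sequence elements through which E2F and cell cycle factors act. They come from the RefSeq promoter table of build GRCm38.p6, while the counts were made on GRCm39, and the table held windows for 7 of the 10 members. Each line gives the 120 bases before the start site, 5′ to 3′ on the gene's strand. Capitals mark a match to an E2F motif (TTTCCCGC, TTTGGCGC, TTTCGCGC or TTTGCCGC), to the shorter E2F core GGCGGGA, or to the cell cycle homology region motif TTTGAA, on either strand. Mybl2 and E2f8 had the largest differences, and E2f3 and E2f6 the smallest.
Mybl2, chr2:163054515-163054634, plus strand: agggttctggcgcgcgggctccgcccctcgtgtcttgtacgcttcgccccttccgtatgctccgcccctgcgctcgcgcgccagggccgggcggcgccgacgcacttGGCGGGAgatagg
E2f8, chr7:48881597-48881716, minus strand: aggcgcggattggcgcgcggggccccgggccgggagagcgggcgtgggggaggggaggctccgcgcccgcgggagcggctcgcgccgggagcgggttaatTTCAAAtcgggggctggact
E2f3, upstream start, chr13:29986064-29986183, minus strand: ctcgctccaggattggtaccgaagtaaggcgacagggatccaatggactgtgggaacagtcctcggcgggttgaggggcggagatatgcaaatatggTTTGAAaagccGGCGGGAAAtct
E2f6, chr12:16810845-16810964, plus strand: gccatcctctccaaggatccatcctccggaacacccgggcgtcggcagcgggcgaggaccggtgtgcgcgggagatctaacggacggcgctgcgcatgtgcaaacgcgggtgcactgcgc
The Mybl2 promoter held the core GGCGGGA at bases -13 to -7 from the start site. The E2f8 promoter held the TTTGAA motif on the opposite strand at bases -20 to -15. The upstream E2f3 promoter held both, with TTTGAA at -23 to -18 and an E2F match at -11 to -4 on the opposite strand that overlaps GGCGGGA at -12 to -6. The window of the downstream E2f3 start, not printed, held GGCGGGA at -78 to -72 (opposite strand) and at 19 to 25. It held no longer E2F motif and no TTTGAA. Counts by gene do not tell these starts apart. The E2f6 promoter held none of the 3. In the full windows of 300 bases (250 before and 50 after the start), an E2F motif was found in 3 of 9 member windows, against 2.26% of all 32851 windows. The core GGCGGGA was in 3 of the 9, against 11.3%, and TTTGAA in 3 of the 9, against 17.9%. The member windows held 54.7% to 78.7% G and C bases, against a mean of 53.8% over all windows. The part of base composition in these shares was not tested. The core was added to the search after the 4 longer motifs had found no match in Mybl2. A match describes the letters of the window and shows no binding.

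Mybl2 (ENSMUSG00000017861) had 10.2, 11.6, 8.60, 8.04 and 13.0 CPM in KO replicates 1 to 5, against 16.04, 22.3, 20.3, 23.6 and 0.734 CPM in WT replicates 1 to 5. Every KO library lay below WT replicates 1 to 4, and WT replicate 5, with 11 reads, lay below all others. KO tumours averaged 10.3 ± 2.07 CPM (SD, n = 5) and WT replicates 1 to 4 averaged 20.6 ± 3.32 CPM (SD, n = 4), so that KO held 50.01% of that WT level. Without WT replicate 5 the log2 fold change was -0.98 ± 0.18 (SE, edgeR adjusted p = 0.193). With it, the value was -0.69 ± 0.63 (edgeR adjusted p = 0.752).

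Foxm1 (ENSMUSG00000001517) had 23.5, 19.6, 25.0, 16.8 and 24.0 CPM in KO replicates 1 to 5, against 30.6, 36.6, 31.1, 32.9 and 3.47 CPM in WT replicates 1 to 5. The KO libraries again lay below WT replicates 1 to 4 without overlap and above WT replicate 5. KO tumours averaged 21.8 ± 3.44 CPM (SD, n = 5) and WT replicates 1 to 4 averaged 32.8 ± 2.70 CPM (SD, n = 4). The log2 fold change was -0.57 ± 0.13 without WT replicate 5 (edgeR adjusted p = 0.279) and -0.31 ± 0.48 with it (edgeR adjusted p = 0.846).

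Among the E2F activators, E2f2 (ENSMUSG00000018983) had 11.3, 11.8, 8.17, 6.54 and 12.9 CPM in KO replicates 1 to 5, against 13.6, 16.5, 13.6, 14.3 and 5.94 CPM in WT replicates 1 to 5. KO replicate 5 came closest to WT replicates 1 to 4, and the groups did not overlap without WT replicate 5. E2f1 (ENSMUSG00000027490) had 14.1, 13.7, 12.05, 12.1 and 12.4 CPM in KO replicates 1 to 5, against 22.7, 13.9, 19.4, 18.8 and 6.61 CPM in WT replicates 1 to 5. The KO libraries lay close together, and WT replicate 2 fell within their range. E2f3 (ENSMUSG00000016477) had 40.4, 33.99, 37.8, 31.7 and 45.3 CPM in KO replicates 1 to 5, against 38.7, 50.7, 37.1, 39.4 and 31.0 CPM in WT replicates 1 to 5. Its groups were mixed, and WT replicate 2 alone stood above all KO libraries. Without WT replicate 5, the log2 fold changes were -0.52 ± 0.15 for E2f1 and -0.50 ± 0.21 for E2f2 (edgeR adjusted p = 0.298 and 0.407). That of E2f3 was -0.11 ± 0.13 (edgeR adjusted p = 0.763). With WT replicate 5 they were -0.34 ± 0.29, -0.34 ± 0.30 and -0.058 ± 0.16 for E2f1, E2f2 and E2f3, with edgeR adjusted p from 0.735 to 0.916.

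Of the atypical repressors, E2f8 (ENSMUSG00000046179) had 12.7, 13.4, 9.07, 8.04 and 15.3 CPM in KO replicates 1 to 5, against 19.1, 21.99, 24.1, 27.2 and 2.67 CPM in WT replicates 1 to 5. All KO libraries lay below WT replicates 1 to 4, and KO held 50.6% of their mean. E2f7 (ENSMUSG00000020185) had 7.30, 5.92, 5.26, 4.79 and 7.36 CPM in KO replicates 1 to 5, against 5.49, 9.50, 9.74, 11.3 and 3.00 CPM in WT replicates 1 to 5. WT replicate 1 lay within the KO range, and WT replicates 2 to 4 lay above it. The log2 fold change of E2f8 was -0.96 ± 0.21 without WT replicate 5 (edgeR adjusted p = 0.252) and -0.70 ± 0.49 with it (edgeR adjusted p = 0.693). That of E2f7 was -0.54 ± 0.24 without WT replicate 5 (edgeR adjusted p = 0.430) and -0.35 ± 0.35 with it (edgeR adjusted p = 0.768). In the GENCODE M21 annotation, E2f8 shares 11.2% of its exon bases with Gm2788 on the opposite strand. That gene had 141 counts over the 10 libraries against 5670 for E2f8. No source used here gives the strand setting of the counting. Overlaps of E2f5, E2f7 and Foxm1 with other genes covered 0.955% to 2.50% of their exon bases.

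Without WT replicate 5, the pocket-bound repressors differed less than E2f7 and E2f8. E2f4 (ENSMUSG00000014859) had 37.6, 40.2, 41.5, 45.1 and 33.0 CPM in KO replicates 1 to 5, against 50.1, 48.6, 41.3, 43.1 and 59.5 CPM in WT replicates 1 to 5. The groups overlapped, and WT replicate 5 was the highest of the 10. E2f5 (ENSMUSG00000027552) had 24.2, 21.2, 18.1, 21.5 and 20.5 CPM in KO replicates 1 to 5, against 28.4, 22.6, 23.1, 25.3 and 14.1 CPM in WT replicates 1 to 5. Only KO replicate 1 reached into the range of WT replicates 1 to 4. Their log2 fold changes were -0.20 ± 0.11 and -0.22 ± 0.12 without WT replicate 5 (edgeR adjusted p = 0.524 for E2f4 and 0.506 for E2f5). With it they were -0.30 ± 0.14 and -0.11 ± 0.19 (edgeR adjusted p = 0.669 for E2f4 and 0.868 for E2f5).

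E2f6 (ENSMUSG00000057469) had 31.9, 31.2, 24.8, 27.9 and 30.4 CPM in KO replicates 1 to 5, against 32.3, 30.2, 33.6, 36.2 and 190 CPM in WT replicates 1 to 5. Apart from WT replicate 5 the groups overlapped, and all 9 libraries lay between 24.8 and 36.2 CPM. WT replicate 5 stood 6.15-fold above the mean of the other 9, and 7.14% of the 18577 genes tested were raised there by at least as much. The log2 fold change was -0.16 ± 0.11 without WT replicate 5 (edgeR adjusted p = 0.583) and -1.14 ± 0.53 with it (edgeR adjusted p = 0.669), so the larger value rests on that library. The skeletal muscle markers given above moved with it, at 9.36% of counts, and their part in the E2f6 level was not tested.

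**Figure D1:**
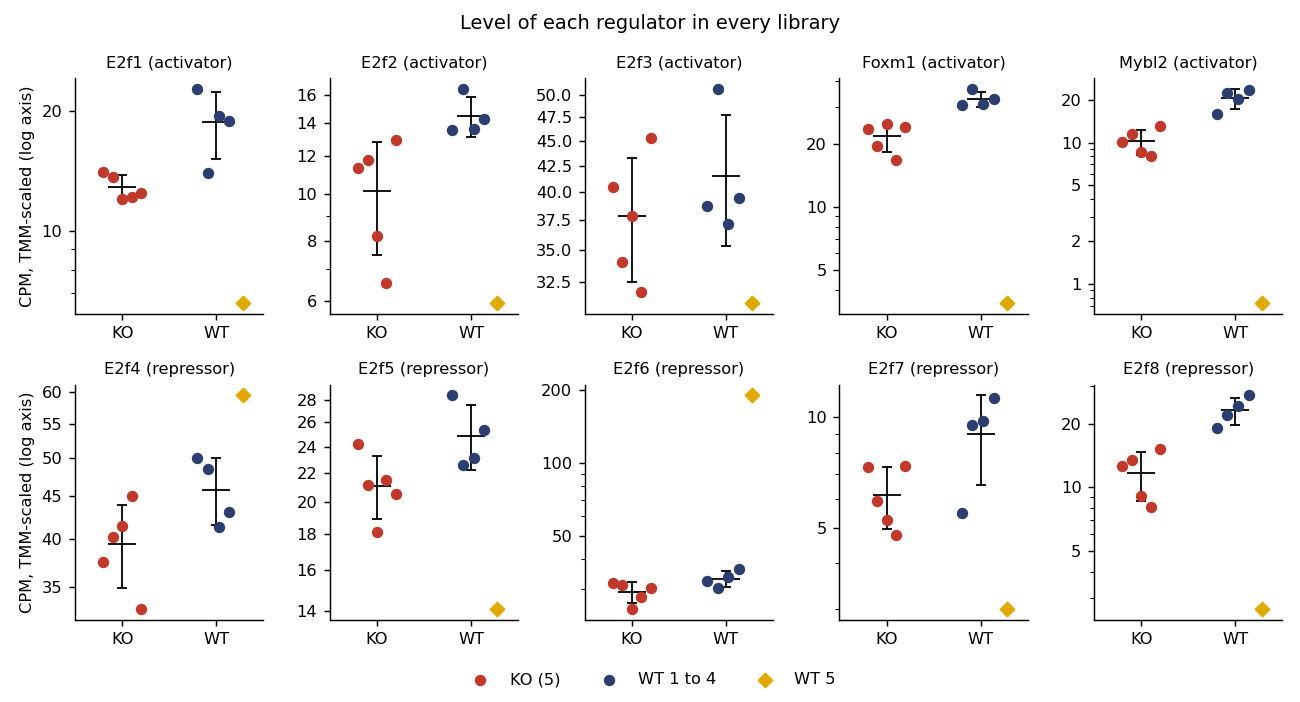
CPM of each regulator (TMM-scaled, log axes that differ between panels) in 5 KO libraries, WT replicates 1 to 4 and WT replicate 5, with bars for the mean and SD of the 5 KO libraries and of WT replicates 1 to 4. KO points lie below WT replicates 1 to 4 without overlap for Mybl2, E2f8, Foxm1 and E2f2, and WT replicate 5 is lowest for 8 genes and highest for E2f4 and E2f6.

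KO libraries all lay below WT replicates 1 to 4 for 4 of the 10 members, Mybl2, E2f8, Foxm1 and E2f2, against 3.44% of all 19016 genes. An unadjusted p under 0.05 with a lower level in KO was found for 6 members in edgeR, the same 4 with E2f1 and E2f7, against 5.85% of genes (5.74% were higher in KO at that p). The share of genes with a log2 fold change below 0 was 46.8%, and the median over all genes was 0.03, against -0.51 over the members. With all 10 libraries no member was free of overlap, where 1.18% of 18577 genes were lower and 0.807% higher in KO without overlap. None had an unadjusted edgeR p under 0.05, against 4.44% of genes lower and 2.56% higher in KO. The share below 0 was then 56.2%, with a median of -0.06 over all genes and -0.34 over the members. Other tools gave other calls without WT replicate 5. DESeq2 called 2.54% of genes, among them Mybl2 (adjusted p = 0.000227), E2f8 (0.00321), Foxm1 (0.0101) and E2f1 (0.0491). The test limma-voom with sample quality weights called 0.747% of genes, among them Mybl2 (adjusted p = 0.0277) and E2f8 (0.0337). With all 10 libraries these tools called 0.322% and 0.0915% of genes, and no member. With the leading number as the unit and without WT replicate 5, edgeR on sums called 0 of 21078 genes (adjusted p = 0.932 for Mybl2 and for E2f8). Limma-voom with the number as a block called 0 of 19016 genes there (adjusted p = 0.531 for each). With all 10 libraries both called 0 genes. The lack of calls held for every gene tested and is no result about the members. In bulk tissue, fewer dividing cells and less of these RNAs per cell cannot be told apart.

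**Figure D2:**
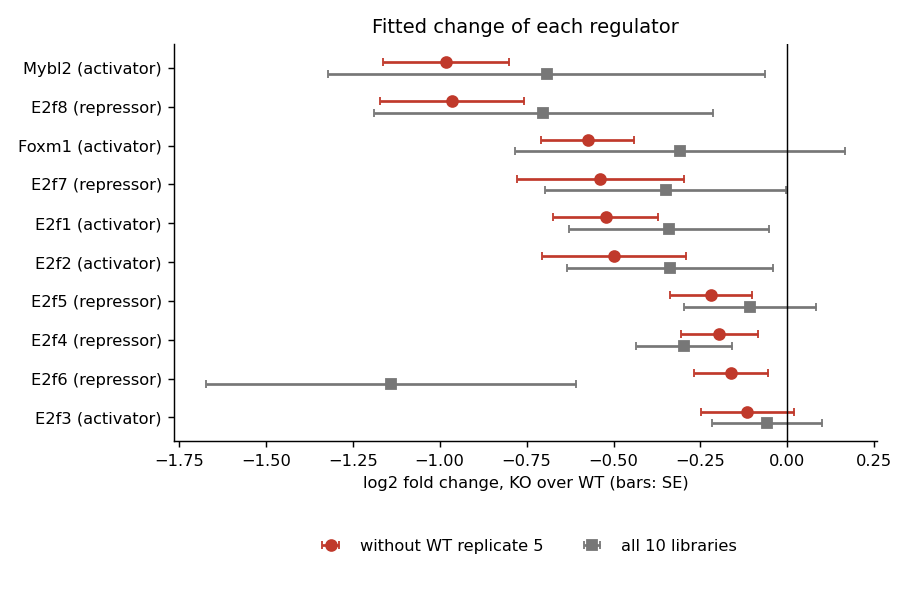
Log2 fold change of each regulator, KO over WT, from edgeR, with bars for the SE, in the fit without WT replicate 5 (circles) and with all 10 libraries (squares). Mybl2 and E2f8 stand at -0.98 and -0.96 without WT replicate 5, and E2f6 goes to -1.14 only with it.

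The members also varied among libraries of 1 group. KO replicates 3 and 4, whose names share a leading number, were the 2 lowest of the 9 libraries for 6 members, E2f1, E2f2, E2f6, E2f7, E2f8 and Mybl2. For Foxm1, KO replicate 3 was instead the highest KO library. Leaving out KO replicate 3 or 4 in the comparison without WT replicate 5 gave a median of -0.46 or -0.42 over the members, against -0.51, with 4 and 5 members in place of 6 at an unadjusted edgeR p under 0.05. Leaving out WT replicate 2, 3 or 4 also left 4 members at that p. All 10 values stayed below 0 whichever further library was left out of this comparison. Mybl2 and E2f8 were the pair most alike over the 9 libraries (Pearson's r of log2 CPM 0.981, and 0.927 for deviations from the group means). E2f4 ran the other way to E2f8 within the groups (r of deviations -0.858, and 0.161 over the libraries as they stand). KO replicate 5, for instance, was the highest KO library for E2f8 and the lowest for E2f4, and KO replicate 4 was the lowest for E2f8 and the highest for E2f4. These correlations describe 9 libraries that share their scaling.

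The activators and the repressors each had a lower mean level in every KO library than in WT replicates 1 to 4. Taken singly, E2f8 alone of the repressors was free of overlap, and of the activators Mybl2, Foxm1 and E2f2 were. How often means of other genes separate in this way was not counted. The mean of the 5 activators was 4.09 ± 0.21 log2 CPM in KO (SD, n = 5) and 4.64 ± 0.06 in WT (SD, n = 4). The mean of the 5 repressors was 4.23 ± 0.14 in KO and 4.64 ± 0.12 in WT tumours. Within each library, activators minus repressors gave -0.16, -0.15, -0.032, -0.32 and -0.0047 in KO replicates 1 to 5, against 0.055, 0.091, -0.056, -0.11 and -1.72 in WT replicates 1 to 5. The KO values overlapped those of WT replicates 1 to 4, and WT replicate 5 stood far below both. The difference between groups was -0.13 without WT replicate 5 (-0.13 ± 0.13 in KO and -0.0051 ± 0.09 in WT), and 0.21 with it (-0.13 ± 0.13 in KO and -0.35 ± 0.77 in WT), and its sign turned with that library. The members were chosen with results known, and no p is given for these means.

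The repressors were also taken in parts. E2f7 and E2f8 together stood at 3.15 ± 0.32 log2 CPM in KO (SD, n = 5) and 3.90 ± 0.33 in WT replicates 1 to 4 (SD, n = 4), a difference of -0.75 with overlap between the groups. E2f4 to E2f6 stood at 4.95 ± 0.09 in KO and 5.14 ± 0.08 in WT, a difference of -0.19 without overlap. Taken singly, E2f4, E2f5 and E2f6 each overlapped between the groups. With all 10 libraries the order turned, with -0.31 for E2f7 and E2f8 and -0.35 for E2f4 to E2f6, and the parts were not tested against each other. With E2f4 to E2f6 alone as repressors, activators minus repressors was -0.85 ± 0.24 in KO and -0.50 ± 0.12 in WT, a difference of -0.35. With E2f1 to E2f3 alone as activators against E2f4 to E2f8, the difference was 0.031. The groups overlapped in both.

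**Figure D3:**
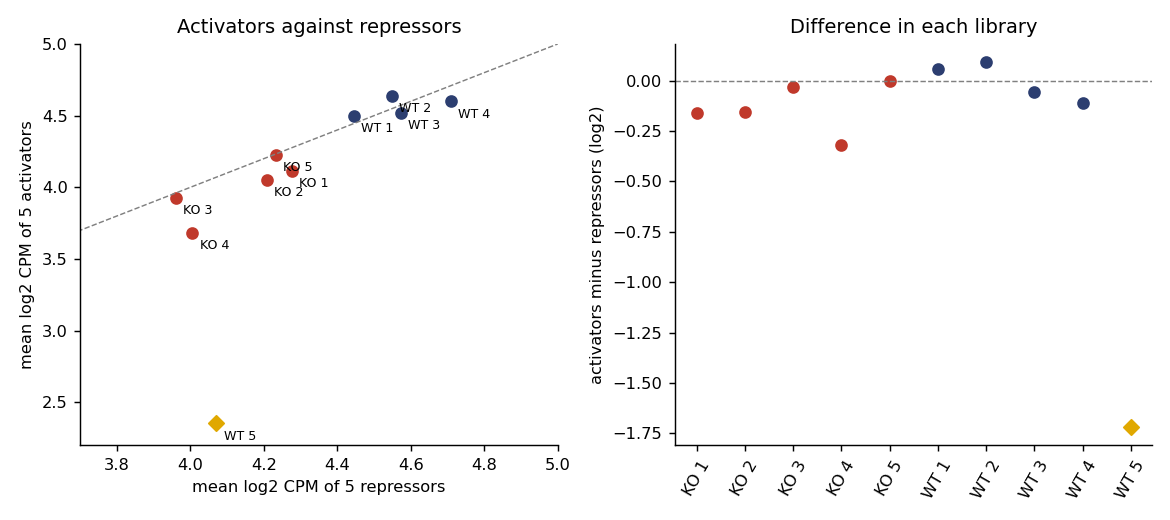
Left, mean log2 CPM of the 5 activators against that of the 5 repressors in each library (dashed line, equal values), and right, their difference in each library, KO before WT. KO and WT replicates 1 to 4 lie near the line, KO lower on both axes, and WT replicate 5 lies at -1.72.

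Levels can be compared between genes only per length, here CPM per kb of exon in the GENCODE M21 annotation. In KO tumours E2f4 (16.1 ± 1.85 CPM per kb) and E2f5 (11.8 ± 1.21) stood highest and overlapped each other, ahead of E2f3 (6.97 ± 0.99) and E2f6 (5.16 ± 0.51; SD, n = 5). E2f1 (4.08 ± 0.30) overlapped both E2f6 and Foxm1 (3.78 ± 0.60) in KO. Mybl2 (2.22 ± 0.45), E2f8 (2.15 ± 0.56) and E2f2 (2.08 ± 0.55) overlapped one another and lay below Foxm1 without overlap. E2f7 was the lowest at 0.680 ± 0.13 CPM per kb. In WT replicates 1 to 4 the order was E2f4 (18.7 ± 1.72), E2f5 (13.9 ± 1.48), E2f3 (7.64 ± 1.14), E2f1 (5.93 ± 1.14), E2f6 (5.84 ± 0.44) and Foxm1 (5.70 ± 0.47; SD, n = 4). The neighbours from E2f3 to Foxm1 overlapped there. Mybl2 (4.44 ± 0.72) and E2f8 (4.24 ± 0.63) also overlapped each other, whereas E2f2 (2.97 ± 0.28) and E2f7 (0.999 ± 0.27) each stood apart. In WT replicate 5, E2f6 was the highest of the 10 at 33.6 CPM per kb and Mybl2 the lowest at 0.158.

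**Figure D4:**
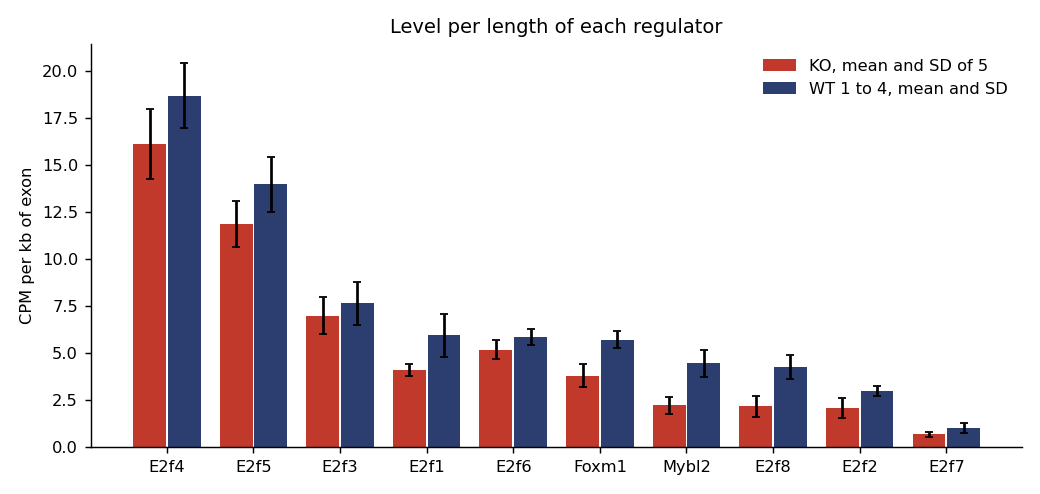
CPM per kb of exon of each regulator, mean and SD of 5 KO libraries and of WT replicates 1 to 4. The pocket-bound repressors E2f4 and E2f5 stand above the other members in both groups, and E2f7 stands lowest.

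Target genes of these factors mostly had log2 fold changes below 0. Of 33 S phase genes known as E2F targets, all 33 had a log2 fold change below 0 without WT replicate 5, with a median of -0.59, and 25 had an unadjusted edgeR p under 0.05, against 5.85% of all genes lower at that p. None passed the adjusted test in edgeR. Of 26 G2 and mitosis genes known as FOXM1 or B-MYB targets, all 26 were below 0, with a median of -0.77. Of these, 24 had an unadjusted edgeR p under 0.05, and edgeR called 1, Ccnb2, cyclin B2. It fell to 36.6 ± 1.61 CPM in KO (SD, n = 5), against 64.8 ± 3.63 CPM in WT replicates 1 to 4 (SD, n = 4) and 3.60 CPM in WT replicate 5 (log2 fold change -0.81 ± 0.08, edgeR adjusted p = 0.0372). Its call was lost with any further library left out (edgeR adjusted p = 0.0534 to 0.194), and with sums (0.681) or blocks (0.121) by leading number. Ccnb1, cyclin B1 (-0.94 ± 0.13, edgeR adjusted p = 0.110), and Cdc20, which switches on the anaphase-promoting complex (-0.83 ± 0.12, 0.133), were not called by edgeR. Nor were the S phase genes with the smallest p, Slbp, the histone stem-loop binding protein (-0.53 ± 0.11, edgeR adjusted p = 0.220), Ung, a DNA repair glycosylase (-0.68 ± 0.14, 0.220), and Rrm2, a subunit of ribonucleotide reductase (-0.89 ± 0.22, 0.285). Both DESeq2 and limma-voom with quality weights called all 5 of these genes, with adjusted p from 4.7e-07 (Ccnb1) to 0.0211 (Rrm2) in DESeq2 and from 0.0102 (Ccnb1) to 0.0392 (Slbp) in limma-voom. With all 10 libraries, 29 of 33 S phase genes and 25 of 26 G2 and mitosis genes were below 0, with medians of -0.35 and -0.49. Then 2 and 0 of them were lower at an unadjusted edgeR p under 0.05, against 4.44% of all genes, and edgeR called none. Ung was called there by DESeq2 (adjusted p = 0.00522) and by limma-voom with quality weights (0.0360). With the leading number as a block, Rrm2, Ccnb1 and Cdc20 turned to 0.14, 0.23 and 0.17. Both lists hold genes of cell division that earlier results on these samples had shown to be lower, so they are not independent evidence.

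The members were also set against the target lists within each library, without WT replicate 5. Relative to the mean of the 33 S phase genes, Mybl2 lay at -1.39 ± 0.17 in KO (SD, n = 5) and -0.99 ± 0.10 in WT replicates 1 to 4 (SD, n = 4) on the log2 scale. E2f8 lay at -1.23 ± 0.11 in KO and -0.82 ± 0.07 in WT. In both cases the groups did not overlap, with differences of -0.40 and -0.41. For Foxm1 the difference was -0.0004, with -0.31 ± 0.29 in KO and -0.31 ± 0.19 in WT. E2f1, E2f2 and E2f7 differed by 0.05 to 0.08, and E2f3 to E2f6 by 0.37 to 0.47, all with overlap. Against the G2 and mitosis genes, Mybl2 and E2f8 differed by -0.21 each and Foxm1 by 0.19, again with overlap. E2f3 lay at 0.22 ± 0.18 in KO and -0.44 ± 0.21 in WT against that list, a difference of 0.66 without overlap. E2f6 lay at -0.15 ± 0.26 in KO and -0.76 ± 0.14 in WT, a difference of 0.62 without overlap. The lists themselves differed by -0.60 (S phase) and -0.80 (G2 and mitosis) in mean log2 CPM, KO minus WT replicates 1 to 4, with the scaling of all 10 libraries. A gene that changes less than a list therefore rises against it by construction. The share of all genes free of overlap on this measure was not counted, and no test of these differences was made.

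Partners of the factors differed gene by gene. Tfdp1, the main DP partner of E2F, stood at 90.2 ± 17.6 CPM in KO (SD, n = 5) and 130 ± 11.6 CPM in WT replicates 1 to 4 (SD, n = 4; log2 fold change -0.51 ± 0.14, edgeR adjusted p = 0.296). Its paralog Tfdp2 stood at 0.22 ± 0.17 on the log2 scale (edgeR adjusted p = 0.648). Of the pocket proteins, Rbl1 (p107), itself an E2F target, had -0.55 ± 0.16 (edgeR adjusted p = 0.299), Rbl2 (p130) 0.25 ± 0.14 (0.514) and Rb1 0.11 ± 0.23 (0.881). The MuvB core subunits with the smallest p were Rbbp4 at -0.27 ± 0.09 (edgeR adjusted p = 0.336), Lin9 at -0.25 ± 0.13 (0.488) and Lin37 at 0.09 ± 0.11 (0.762). Among 9 partners of E2F6 in Polycomb complexes, 6 were below 0, led by Pcgf6 at -0.33 ± 0.13 (edgeR adjusted p = 0.376) and Cbx3 at -0.32 ± 0.13 (0.383), and Yaf2 stood at 0.29 ± 0.14 (0.473). Stag3, a meiotic cohesin gene and the only 1 of 6 germline targets of E2F6 that could be tested, had -0.74 ± 0.41 (edgeR adjusted p = 0.522). Its level was near the floor, at 0.274 ± 0.17 CPM in KO (SD, n = 5) and 0.464 ± 0.12 CPM in WT replicates 1 to 4 (SD, n = 4). None of these was called by edgeR. With all 10 libraries none was called either (edgeR adjusted p from 0.669 upwards).

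**Figure D5:**
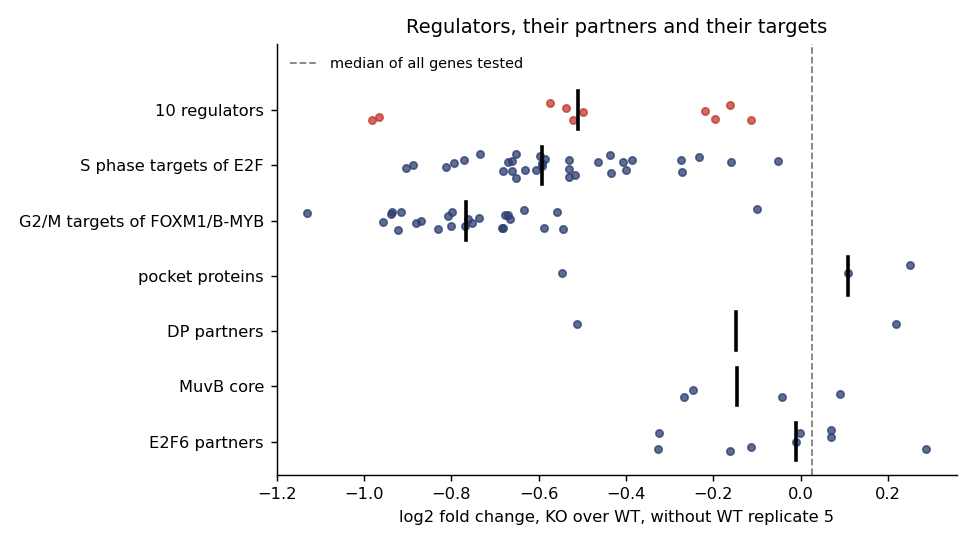
Log2 fold change, KO over WT, without WT replicate 5, of the 10 regulators, of their target lists and of their partners. Points are genes (their height within a line carries no value), black bars are medians and the dashed line is the median of all genes tested, and both target lists lie at or below -0.05 in every gene.

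Markers of cell types were also compared between the groups. Without WT replicate 5, the luminal list took 0.593% to 0.919% of counts in KO and 0.653% to 0.753% in WT, and 7 of 15 markers were lower in KO. The adipocyte list took 0.0170% to 0.236% in KO and 0.0169% to 0.0480% in WT, with 11 of 11 markers higher in KO. KO replicates 2 and 4 held 0.215% and 0.236%, and the other KO libraries at most 0.0344%. Skeletal muscle markers took 0.000743% to 0.183% in KO and 0.000541% to 0.0111% in WT, with 13 of 13 tested markers higher in KO. Fibroblast markers took 0.412% to 0.842% in KO and 0.0211% to 0.761% in WT, with 9 of 10 higher in KO. Endothelial markers were higher in KO for 8 of 8, macrophage markers for 2 of 9, myoepithelial markers for 3 of 8 and T and NK cell markers for 8 of 9, and no B cell marker passed the filter. No marker was called by edgeR. At an unadjusted edgeR p under 0.05, 2 adipocyte, 3 skeletal muscle, 2 myoepithelial and 1 T and NK cell markers were higher in KO. At that p 1 myoepithelial marker was lower, and 5.74% of all genes were higher and 5.85% lower. The part of these cell types in the lower level of the regulators was not tested. Measured against the mean of the 15 luminal markers in the same library, Mybl2 and E2f8 differed by -0.97 each and Foxm1 by -0.57, close to their fold changes, with overlap between the groups.

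Genes whose levels ran most like those of a member were sought among 13108 genes by Pearson's r of log2 CPM over the 9 libraries. The other members were left out of this ranking, and Mybl2 and E2f8 had an r of 0.981 with each other. Nearest to Mybl2 were Kif2c (r = 0.980), Cenpn (0.977) and Kif22 (0.976), which encode kinesins and a centromere protein. Nearest to E2f8 were Rbmxl1 (0.992), a near copy of Rbmx whose reads may be shared with it, and Melk (0.991) and Nuf2 (0.991), a mitotic kinase and a kinetochore subunit. For E2f7 they were Slf1 (0.970), Ube2c (0.965) and Gpsm2 (0.965), and for E2f2 they were Ipo9 (0.988), Ints10 (0.987) and Polq (0.985). Foxm1 ran most like Tdp2 (0.985), Cops2 (0.973) and Pif1 (0.965), and E2f1 most like Washc3 (0.964), Psmd10 (0.939) and Prpf38a (0.938). The nearest genes to E2f3, E2f4, E2f5 and E2f6 were Cnot10 (0.938), Paox (0.957), Eif2d (0.948) and Atp23 (0.973). These values describe 9 libraries that share their scaling, with the highest r picked from 13108 genes.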

How the data were processed

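Poly(A) RNA of whole tumours was made into stranded Illumina libraries, per the labels' protocols. The deposited values are raw counts of reads by gene. FastQC, STAR, featureCounts, DESeq2 and the build GRCm39 are listed in the submitters' processing notes; no source used here gives versions, annotation, strand setting or the treatment of multi-mapping reads. The table held 57010 genes, of which 52029 had a symbol, and 1 symbol of the lists (Lin52) was not matched. Depth was 25.7 to 43.3 M counts per library.

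The comparison of KO with WT used TMM scaling, the filter filterByExpr and robust quasi-likelihood F-tests (edgeR 4.0.16 under R 4.3.3) over all genes, with all 10 libraries and without WT replicate 5. The SE is the fold change divided by the square root of F. CPM values come from the fit of all 10 libraries, and log2 CPM has a prior count of 2. Leaving out each library was 1 alternative. The others were DESeq2 1.42.0, RLE scaling, a surrogate variable from sva 3.50.0, limma-voom (limma 3.58.1) with quality weights, sums or blocks by leading number, and other count filters (none, or 10 counts in every library). The edgeR fits were also run on counts simulated with known fold changes, drawn independently for each gene. The outcome is not given here, and no result above rests on it. Exon lengths come from GENCODE M21 (GRCm38). Besides the members, the 3 genes with the smallest p of each partner or target list without WT replicate 5 are named. The 3 most alike to each member are also named. These had a mean of at least 1 CPM, and other members, predicted genes and pseudogenes were left out. For 4 members the nearest alone is printed. The members and lists were chosen with earlier results of these data known.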

Additional observations from a re-analysis of the deposited data

Results flagged for a closer look

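Of 35 groups of values, 5 held 1 library far from the rest of its group, by the gap to the next value over the range of the group. Of these, 4 were WT replicate 5 within the 5 WT libraries. It had 190 CPM of E2f6, 5.94 CPM of E2f2 and 3.47 CPM of Foxm1, and its activators minus repressors value was -1.72. The other was E2f3 in WT replicate 2, at 50.7 CPM, far above WT replicates 1, 3 and 4. Mybl2 in WT replicate 5, at 0.734 CPM, was not flagged by this rule. The groups share libraries, so the 5% of groups that chance would give is no yardstick for their number.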

How the results depend on the processing

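All 10 members stayed below 0 without WT replicate 5 under every alternative run except limma-voom with quality weights, where E2f3 stood at 0.0025. With all 10 libraries, sums per leading number turned E2f3 (0.019) and E2f5 (0.026), and the block by leading number turned Foxm1 (0.022) and Mybl2 (0.085), so 8 of 10 were below 0 in each. Leaving out WT replicate 2 there turned E2f3 (0.051). Over the fits leaving out 1 library, 9 to 10 members were below 0 with all 10 libraries, and 10 in each without WT replicate 5. The cause of these turns was not tested. The range of activators minus repressors over such fits was -0.13 to 0.32 with all 10 libraries and -0.16 to -0.08 without WT replicate 5. It moved to 0.031 with E2f1 to E2f3 against all repressors, and to -0.35 without E2f7 and E2f8, by construction of the groups.

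Called genes numbered 0 with all 10 libraries in edgeR (1301 at an unadjusted p under 0.05), 50 in DESeq2 and 17 in limma-voom with quality weights, and 0 to 2 over the fits leaving out 1 library. DESeq2 gave E2f6 no p there. Without WT replicate 5 edgeR called 2, DESeq2 433, limma-voom with quality weights 142, 1 surrogate variable 11, no low-count filter 3, sums and blocks by leading number 0 each (1044 and 1175 at an unadjusted p under 0.05), and fits leaving out a further library 0 to 1. Of the partners and targets, with all 10 libraries the block turned Rrm2 (0.14), Ccnb1 (0.23), Cdc20 (0.17) and Lin9 (0.040). Sums turned Tfdp2 (-0.022), Lin9 (0.12) and Rbl2 (-0.057), and quality weights turned Rb1 (-0.064, and -0.054 without WT replicate 5). Leaving out 1 library, Tfdp2 ranged from -0.0028 to 0.22, Lin9 from -0.25 to 0.016 and Rbl2 from -0.058 to 0.25, and Rb1 without WT replicate 5 from -0.050 to 0.36. No paired analysis was possible because the labels tie no KO library to a WT library. The replicate numbers used here follow the order of the samples within each group and mark no pairs. Depth limits Mybl2 in WT replicate 5 most, with 11 reads.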

Other observations

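The level of each regulator in WT replicate 5 can be set against all 18577 genes tested with 10 libraries. Relative to the mean of the other 9 libraries, Mybl2 stood at 0.0494-fold, and 4.76% of genes were as low or lower. Foxm1 stood at 0.130-fold (8.56% of genes as low or lower) and E2f8 at 0.159-fold (9.78%). E2f7, E2f1 and E2f2 stood at 0.406-fold, 0.427-fold and 0.492-fold, with 20.1% to 24.9% of genes as low or lower. E2f5 and E2f3 stood at 0.618-fold and 0.784-fold, with 33.4% and 44.0% of genes as low or lower. E2f4 stood at 1.41-fold, with 31.7% of genes as high or higher, and E2f6 is given above.

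The retinoblastoma gene Rb1 varied more among WT replicates 1 to 4 (118 ± 45.3 CPM, SD, n = 4) than among KO libraries (126 ± 13.3 CPM, SD, n = 5), and this difference in spread was not tested.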
